A study of Mus musculus with 10 samples.

Results

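The genes described here encode subunits of the Arp2/3 complex and regulators of the WAVE complex. They were taken by name from the count table, which gave 10 genes of 24453, and each was read in all 10 libraries. *Actr2*, *Actr3*, *Arpc1a*, *Arpc1b*, *Arpc2*, *Arpc3* and *Arpc5* encode Arp2/3 subunits, and *Wasf1*, *Cyfip1* and *Cyfip2* encode proteins of the WAVE complex.

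The study profiled intratelencephalic projection neurons (IT-PNs) of layer 5 in the primary motor cortex (M1) of male mice that carry a *Fezf2-Gfp* reporter transgene, strain (Zfp312-EGFP)CO61GsatMmnc. The retrograde tracer cholera toxin subunit b (CTB), coupled to Alexa 647, was put into the left M1 at postnatal day 23 to 25, and cells were sorted from layer 5 of the right M1 at postnatal day 28 to 32. *Fezf2+ve* IT-PNs carried GFP and CTB, *Fezf2−ve* IT-PNs carried CTB only, and both came from the same 5 animals, with 1 library of each type per animal. The sample records give mean sort yields of 11280 *Fezf2+ve* and 2688 *Fezf2−ve* cells, and the study's text gives a different mean for the *Fezf2−ve* cells. A type is thus defined by reporter and tracer fluorescence and not by a transcript.

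The Arp2/3 complex starts a new actin filament as a branch on the side of an existing one. It is nearly inactive alone and is switched on by nucleation promoting factors, among them the WAVE complex, which holds a WASF protein inactive through a CYFIP subunit until the GTPase Rac binds. In neurons, branched actin of this kind is known for its place in growth cones, dendritic spines and presynaptic terminals, and in microglia for the movement of their processes.

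Reads counted on genes numbered 107643 to 203379 in the *Fezf2+ve* libraries (median 118134) and 89138 to 217738 in the *Fezf2−ve* libraries (median 168711). The totals were lower in *Fezf2+ve* in 4 of 5 animals (p = 0.188 by an exact permutation test of paired values, two-sided, where 5 animals allow no p below 0.062, so a difference in depth is not excluded). Reads on the ERCC spike-in made up 6.44 to 46.7% of gene and ERCC reads in *Fezf2+ve* and 2.79 to 27.1% in *Fezf2−ve* libraries (exact permutation test, p = 0.625). In *Fezf2+ve* library 1, which had the 46.7% share, a single gene also took 29.8% of the gene reads. A count of 3 reads, taken here as the floor of detection, corresponds to 13.8 to 33.7 CPM, which are counts scaled to a common library total of gene reads. Floors and intervals cover counting error only, because these PCR reads carry no molecular identifiers and so do not each stand for a molecule. *Fezf2* itself had 1 read in all, in *Fezf2+ve* library 5, and 0 reads in the other 9 libraries, so these reads cannot check the labels at this depth.

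The 10 genes were sparsely covered. Together they had 601 reads over the 10 libraries. Of the 100 values (10 genes in 10 libraries), 34 were 0, 32 were 1 or 2 reads, and 34 were 3 reads or more. The median gene of the set had 27 reads over all libraries, close to the median of 24 over the 7409 genes that had at least 10 CPM in at least 2 libraries and were therefore tested. All 10 genes passed that filter. *Arpc1b* and *Arpc3* never had more than 2 reads in a library, so no fold change is given for them.

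**Figure D1:**
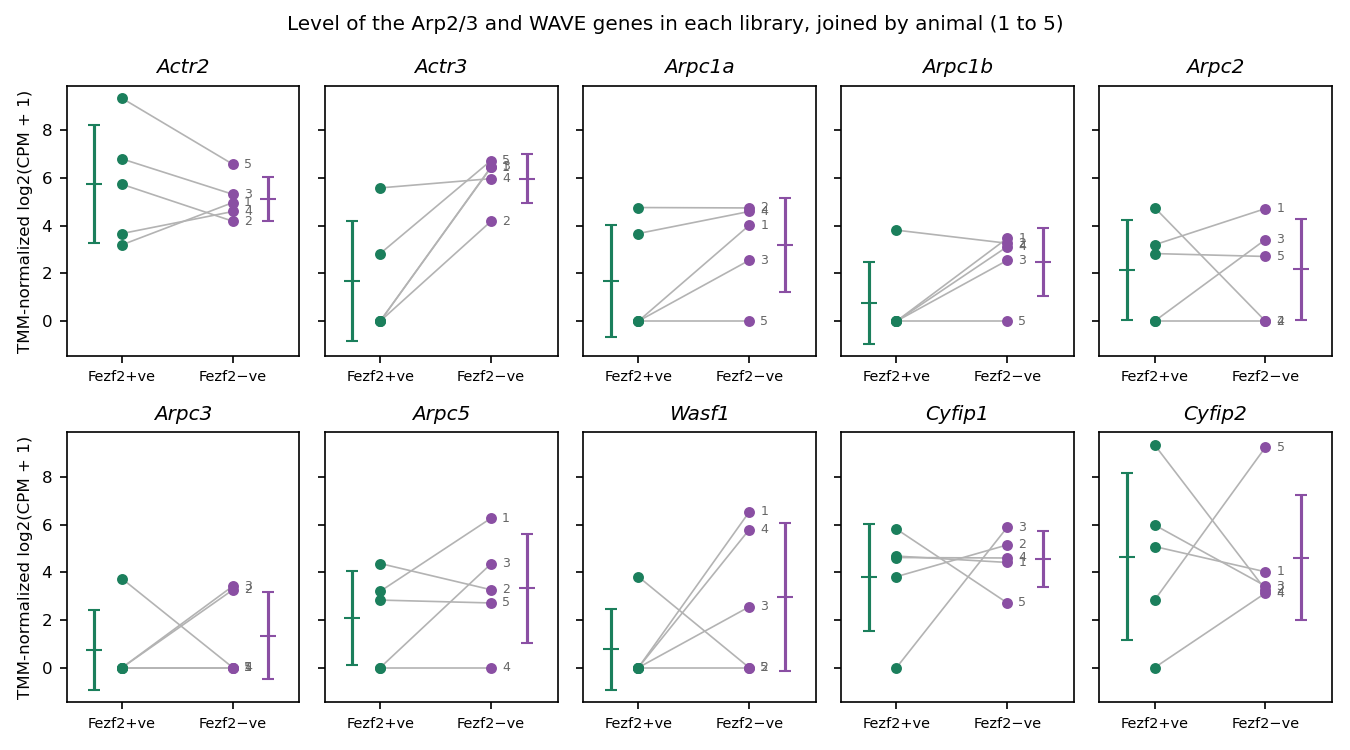
Level of each gene as TMM-normalized log2(CPM + 1), where TMM is edgeR's scaling between libraries. Each point is a library, grey lines join the libraries of an animal, numbered 1 to 5, and bars show the mean ± SD of a type (n = 5). *Actr3* was lower in *Fezf2+ve* in 5 of 5 animals, whereas the lines of the other genes cross or tie.

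*Actr3* encodes Arp3, 1 of the 2 actin-related proteins that together mimic the end of a filament from which the branch grows. Animals 1 to 5 gave 0, 0, 0, 4 and 1 *Actr3* reads in *Fezf2+ve* IT-PNs. The same animals gave 17, 2, 18, 8 and 19 reads in *Fezf2−ve* IT-PNs. Thus 3 *Fezf2+ve* libraries had none, and every *Fezf2−ve* library had some. The gap was narrow in animal 4, at 26.4 against 37.8 CPM, and *Fezf2−ve* library 2, at 22.4 CPM, lay under *Fezf2+ve* library 4, so the types overlapped.

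The mean level of *Actr3* was 6.26 ± 11.5 CPM in *Fezf2+ve* and 71.1 ± 38.4 CPM in *Fezf2−ve* IT-PNs (SD, n = 5). Pooled over libraries, its share of the gene reads was 10.5 times higher in *Fezf2−ve* (exact 95% counting interval 4.26 to 33.3). *Fezf2+ve* library 4 held 4 of the 5 *Fezf2+ve* reads, and without it the ratio was 41.0, while leaving out any other library gave 8.69 to 12.2. The fitted log2 fold change (*Fezf2+ve* relative to *Fezf2−ve*) was −3.80 (SE 1.61), with an unadjusted p of 0.0185 and a Benjamini-Hochberg adjusted p = 1.00 in the quasi-likelihood test of edgeR, blocked by animal. The paired levels of *Actr3* gave p = 0.062, the smallest that an exact permutation test of 5 animals allows (two-sided). Being lower in *Fezf2+ve* in 5 of 5 animals was seen for 2.42% of tested genes, and for 1 of these 10. The fold change was negative in each of 27 alternative settings, between −5.15 and −2.82, and its unadjusted p was under 0.05 in 20 of them. All settings refit the same reads, and many are close variants of edgeR added after counts of calls had been seen. In edgeR the unadjusted p was 0.0583 without animal 1, 0.0749 without animal 3 and 0.0513 without the block. In sorted cells, fewer cells of a type and less RNA per cell cannot be told apart.

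*Actr3* lies on chromosome 1 (minus strand, 125392905 to 125435727, GRCm38). The study designed a primer pair to measure its transcript by qPCR, and the pair is shown here because it marks the part of the transcript that the qPCR reads. Both primers, matched to the GENCODE transcripts, lie in the coding sequence. The forward primer crosses from exon 1 to exon 2, and the reverse primer lies in exon 3 (chr1:125416346-125416366). They bound 104 bases of the transcript and both occur in 5 of its 12 annotated transcripts.
Actr3 forward: actgtggcacgggatatacaa
Actr3 reverse: gtcacccacttttgcagactc

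*Actr2* encodes Arp2, the partner of Arp3 in the complex, and its reads did not follow those of *Actr3*. The *Fezf2+ve* libraries had 1, 8, 16, 1 and 106 reads of *Actr2*, in the order of the animals. The *Fezf2−ve* libraries had 6, 2, 8, 3 and 17. *Fezf2+ve* library 5 thus held 63.1% of all *Actr2* reads, and animal 5 also gave the highest *Fezf2−ve* value. *Actr2* was higher in *Fezf2+ve* in 3 animals and lower in 2. Its level was 149 ± 215 CPM in *Fezf2+ve* and 39.6 ± 25.0 CPM in *Fezf2−ve* IT-PNs (SD, n = 5), and the fitted log2 fold change was 0.82 (SE 1.52), less than its error, with 0.16 to 2.00 over the alternatives. *Actr2* is also 1 of the 2 members of the set with an adjusted p from DESeq2 (adjusted p = 0.805). Across the 10 libraries the levels of *Actr2* and *Actr3* had a Pearson correlation of −0.11, given as a description.

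**Figure D2:**
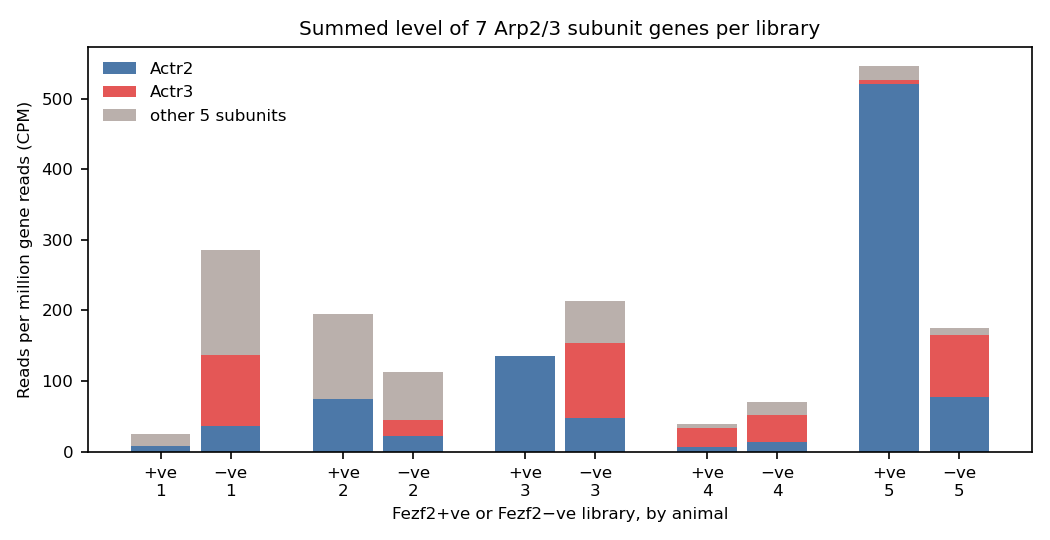
Summed level of the 7 Arp2/3 subunit genes in each library, in CPM, with *Fezf2+ve* and *Fezf2−ve* libraries of an animal side by side. *Actr2* makes up 521 of 546 CPM in *Fezf2+ve* library 5, and *Actr3* is at 0 in *Fezf2+ve* libraries 1, 2 and 3.

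*Arpc5* encodes p16, a peripheral subunit. It had 1, 3, 0, 0 and 1 reads in *Fezf2+ve* and 15, 1, 4, 0 and 1 reads in *Fezf2−ve* IT-PNs. *Fezf2−ve* library 1 held 57.7% of the *Arpc5* reads. The animals were split, with 2 lower, 2 higher and 1 tied at 0, and the log2 fold change of −1.29 (SE 1.74) was within its error. *Arpc1a* and *Arpc1b* encode alternative forms of the p40 subunit, and *Arpc1b* is the form known from blood and immune cells. *Arpc1a* had 0, 4, 0, 1 and 0 reads in *Fezf2+ve* and 3, 3, 1, 3 and 0 in *Fezf2−ve* IT-PNs, with a log2 fold change of −1.25 (SE 1.67). *Arpc1a* was lower in *Fezf2+ve* in 3 animals, higher in 1 and at 0 in both libraries of animal 5. *Arpc1b* had 2 reads in *Fezf2+ve*, both in library 2, and 5 reads spread over 4 *Fezf2−ve* libraries. The 2 genes are neighbours on chromosome 5, where *Arpc1a* ends at 145108761 and *Arpc1b* starts at 145114215.

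*Arpc2* encodes p34, which with p20 forms the structural core of the complex. It had 1, 4, 0, 0 and 1 reads in *Fezf2+ve* and 5, 0, 2, 0 and 1 in *Fezf2−ve* IT-PNs. These values overlap fully, and the log2 fold change of −0.21 (SE 1.72) became positive when the counts were downsampled or when animal 1 or 3 was left out. *Arpc3*, which encodes p21, had 2 reads in *Fezf2+ve* library 5 and 3 reads in *Fezf2−ve* libraries 2 and 3, and 0 in the other 7 libraries.

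Summed over the 7 subunits, the *Fezf2+ve* libraries had 25.4, 195, 136, 39.6 and 546 CPM and the *Fezf2−ve* libraries 286, 112, 213, 71.0 and 175 CPM, lower in *Fezf2+ve* in animals 1, 3 and 4 and higher in 2 and 5. Summed over the 6 subunits other than *Actr2*, the *Fezf2+ve* libraries had 16.9, 121, 0, 33.0 and 24.6 CPM and the *Fezf2−ve* libraries 250, 89.7, 166, 56.8 and 96.4 CPM. That sum was lower in *Fezf2+ve* in animals 1, 3, 4 and 5, and higher in animal 2, so *Actr2* alone set the direction in animal 5. Without *Actr3* as well, the 5 remaining subunits had 16.9, 121, 0, 6.60 and 19.7 CPM in *Fezf2+ve* against 149, 67.3, 59.3, 18.9 and 9.19 CPM in *Fezf2−ve* libraries, and animals 2 and 5 then had the higher value in *Fezf2+ve*. *Actr2* was left out of these sums after its values had been seen.

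The complex also draws on genes outside the set. *Arpc4*, the p20 subunit, had 134 reads in *Fezf2+ve* and 16 in *Fezf2−ve*, and 88.0% of all its reads lay in *Fezf2+ve* library 1. *Arpc5l*, an alternative form of p16, had 195 and 13 reads, with 166 in *Fezf2+ve* library 3. *Actr3b*, an alternative form of Arp3, had 1 and 12 reads and did not pass the filter. The log2 fold changes of *Arpc4* and *Arpc5l* were 0.54 (SE 2.02) and 0.41 (SE 3.56), both under their errors. For *Arpc5l* the DESeq2 value had the opposite sign (−0.54), and the gene was lower in *Fezf2+ve* in 3 animals and higher in 2. Different subunits of a complex thus peaked in different single libraries.

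*Wasf1* encodes WAVE1, the WASF protein known from brain, whose end binds Arp2/3 and actin. The *Fezf2+ve* libraries had 0, 2, 0, 0 and 0 reads of *Wasf1*. The *Fezf2−ve* libraries had 18, 0, 1, 7 and 0. Its reads were thus in 4 of 10 libraries, and *Fezf2−ve* library 1 held 64.3% of them. In the pooled reads the share of *Wasf1* was 10.6 times higher in *Fezf2−ve*, with an exact 95% counting interval of 2.66 to 92.4 that rests on 2 *Fezf2+ve* reads in a single library. Without *Fezf2−ve* library 1 the ratio was 4.07, and without *Fezf2+ve* library 2 it has no upper bound, as 0 *Fezf2+ve* reads remain. Between animals the difference was not the same each time, since *Wasf1* was lower in *Fezf2+ve* in 3 animals, higher in 1 and at 0 in both libraries of animal 5 (exact permutation test of paired levels, two-sided, p = 0.375). The fitted log2 fold change was −2.59 (SE 1.97), and ranged from −5.04 to −1.30 over 26 alternatives. Its unadjusted p was 0.189 in the blocked edgeR fit, and under 0.05 in 9 of the 26, which were the 8 edgeR fits without the block (0.0314 to 0.0364) and the blocked fit without animal 2 (0.0261).

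*Cyfip1* and *Cyfip2* encode the subunits through which Rac reaches the WAVE complex, and CYFIP1 is also a partner of the translation regulator FMRP. *Cyfip1* had 3, 2, 0, 2 and 9 reads in *Fezf2+ve* and 4, 4, 12, 3 and 1 reads in *Fezf2−ve* IT-PNs. No library dominated its 40 reads, and *Cyfip1* was higher in *Fezf2+ve* in 3 animals and lower in 2 after normalization. The mean was 20.3 ± 16.3 CPM in *Fezf2+ve* and 31.7 ± 26.6 CPM in *Fezf2−ve* IT-PNs (SD, n = 5). The log2 fold change of −0.38 (SE 1.48) turned positive when animal 3 was left out.

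*Cyfip2* had the most reads of the set, 229, but 2 libraries held nearly all of them. It had 4, 99, 9, 0 and 1 reads in *Fezf2+ve* and 3, 1, 2, 1 and 109 reads in *Fezf2−ve* IT-PNs. The high libraries were of opposite types and of different animals, 2 and 5. *Cyfip2* lies on chromosome 11 (minus strand, 46193850 to 46312859), and *Fndc9* lies within it on the plus strand (46235531 to 46239872), with 0 bases of its exons in exons of *Cyfip2*. *Fndc9* had 2, 98, 0, 0 and 0 reads in *Fezf2+ve* and 1, 0, 0, 0 and 109 reads in *Fezf2−ve* IT-PNs. The counting tool counts a read on each gene it overlaps, its use of strand is not stated, and the count of *Cyfip2* was at or above that of *Fndc9* in the 4 of 4 libraries in which *Fndc9* had reads. The counts may be of the same reads, and the 2 genes cannot be told apart in the table. Among protein-coding genes that lie wholly within another gene on the opposite strand (RefSeq spans), the outer gene's count was at or above that of the inner one in 292 of 371 library values in which the inner gene had reads, and on the same strand in 1920 of 1933, which does not decide how strand was used. The same limit holds for *Cyfip1*, which overlaps *Nipa2* by 1316 bases (18 reads of *Nipa2* in all), *Arpc1b*, which overlaps *Pdap1* by 1937 bases (37 reads), and *Arpc1a*, which overlaps *Kpna7* by 201 bases (7 reads), so some of their reads can come from these neighbours. If each *Fndc9* read was also counted on *Cyfip2*, 19 of the 229 reads were from elsewhere in the gene, with 2, 1, 9, 0 and 1 in *Fezf2+ve* and 2, 1, 2, 1 and 0 in *Fezf2−ve* libraries. The log2 fold change of *Cyfip2* was 0.91 (SE 1.99) as counted and 0.86 with those reads taken off, and neither the DESeq2 adjusted p = 0.839 nor the split of 3 animals higher and 2 lower separated the types.

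**Figure D3:**
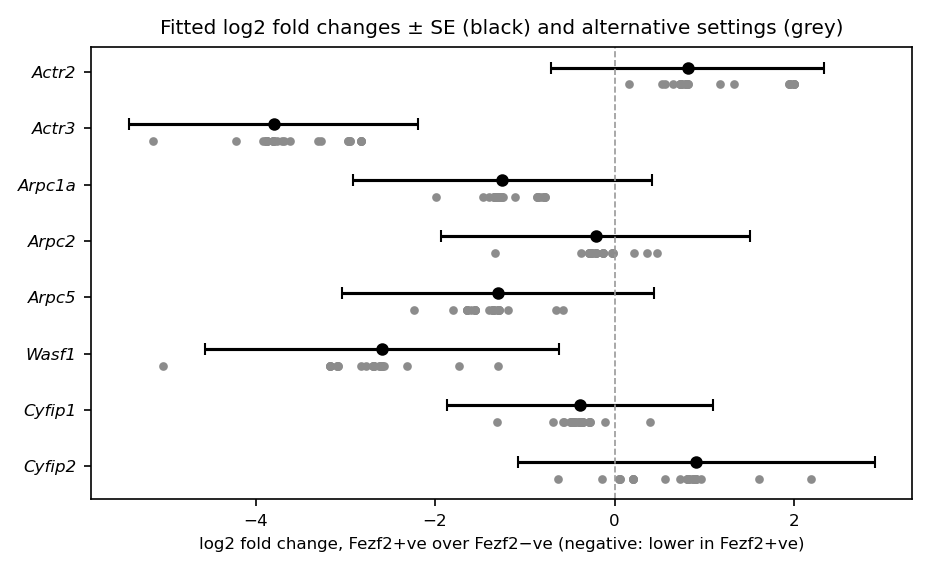
Log2 fold change (*Fezf2+ve* relative to *Fezf2−ve*) for the 8 genes above the floor, with its standard error (black) and its value under each alternative setting (grey). *Actr3* lies at −3.80 with grey points from −5.15 to −2.82, while points of *Arpc2*, *Cyfip1* and *Cyfip2* fall on both sides of 0.

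Set against all tested genes, the members gave no call. In edgeR, blocked by animal, 0 of the 10 had an adjusted p at or below 0.1, as did 0 of all 7409 genes (0.0%), and the smallest adjusted p of any gene was 0.918. Libraries spread widely around the fit (common biological coefficient of variation 1.19), which leaves it little power, so 0 calls do not show that the types were alike. At an unadjusted p under 0.05 the same fit had 294 genes, and 1 of the 10 members, *Actr3*. That is to be read beside 2.42% of all tested genes that were lower in *Fezf2+ve* at this threshold and 1.55% that were higher. Without the block, edgeR called 638 genes (8.61%) and 1597 were at an unadjusted p under 0.05, with 0 members called. With robust dispersions that fit called 40 genes. DESeq2 with the block called 98 of the 1664 genes to which it gave an adjusted p (5.89%), and 302 were at an unadjusted p under 0.05. It gave an adjusted p to *Actr2* and *Cyfip2* and called 0 of these 2. The other 8 members had NA and so could not be called, among them *Actr3*, with a DESeq2 log2 fold change of −4.22 and an unadjusted p of 0.00747. On simulated data with this spread set for every gene and no animal effect, DESeq2 made more wrong calls than right ones. Its calls given here need that caution, but single genes were not simulated with their own spread. The simulation thus does not give the share of wrong calls in these data. None of the 10 had levels that did not overlap between the types, which 1.46% of tested genes had. Of the 8 members above the floor, 6 had a negative log2 fold change, with a median of −0.82 over the 8. Over all tested genes 54.4% were negative and the median was −0.17.

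Outside the set, 93 genes were listed as further Arp2/3 and WAVE subunits, other nucleation promoting factors, upstream GTPases and their regulators, inhibitors of the complex, actin turnover factors, and formins or Ena/VASP proteins, and 67 were tested. At an unadjusted p under 0.05, 2 of the 67 were lower in *Fezf2+ve* (2.99%) and 0 were higher in the blocked edgeR fit, and 0 passed its adjusted threshold. The 2 genes were *Elmo2*, part of a Rac activator, with 1 read in *Fezf2+ve* and 53 in *Fezf2−ve*, and *Coro1c*, a coronin that limits branches, with 1 and 61 reads. A single library held 85.2% of the *Elmo2* reads and 83.9% of the *Coro1c* reads. DESeq2 gave an adjusted p to 31 of the 67 and called 1 higher in *Fezf2+ve* and 1 lower (6.45%, beside 5.89% over all genes). These were *Srgap1* (1907 and 60 reads by type, higher in *Fezf2+ve* in 5 of 5 animals, DESeq2 log2 fold change 3.68, adjusted p = 0.0478) and *Srgap2* (216 and 1095 reads, lower in 4 of 5, DESeq2 log2 fold change −4.22, adjusted p = 0.0842). *Fezf2+ve* library 2 held 62.2% of the *Srgap1* reads, and *Fezf2−ve* library 4 held 62.4% of the *Srgap2* reads. Of the 216 *Fezf2+ve* reads of *Srgap2*, 206 were in library 3. The edgeR fit gave *Srgap1* and *Srgap2* unadjusted p-values of 0.0785 and 0.128. The median log2 fold change of the 67 was −0.58.

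Within the WAVE complex itself, all 8 further genes were tested and 5 had a negative log2 fold change. *Nckap1*, the large scaffold that CYFIP binds, had the most reads, 48 in *Fezf2+ve* and 1462 in *Fezf2−ve*, of which 95.8% were in *Fezf2−ve* library 5. That is also the library with 109 reads of *Cyfip2*, a count equal to that of *Fndc9* there, so those reads may not be of *Cyfip2*. *Abi3*, an adaptor of the complex, is also in the list of myeloid actin regulators described below. It had 1 read in *Fezf2+ve* and 13 in *Fezf2−ve*, with reads in each of the 5 *Fezf2−ve* libraries. Among 12 other promoting factors and their partners 5 were tested, and *Wipf1* had the most reads, 192, of which 96.4% lay in *Fezf2−ve* library 1. In the lists of upstream GTPases, inhibitors, turnover factors and formins, 18 of 22, 4 of 8, 16 of 23 and 14 of 17 genes were tested, and the genes with the most reads were *Dock4*, *Coro1c*, *Ssh2* and *Fmn1*. All 5 listed partners of FMRP and *Cyfip1* were tested and none had an unadjusted p under 0.05, with *Eif4e* having the most reads, 82.

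The 5 tested genes whose levels followed *Actr3* most closely over the 10 libraries were *Wdfy2* (Pearson r = 0.92), *Rnase4* (r = 0.89), *Abi3* (r = 0.88), *Tubb4a* (r = 0.88) and *Ptpn9* (r = 0.87). These correlations are descriptions of the same 10 libraries, whose types and depth all genes share, and 4 of the 5 genes had 1 or 2 reads in *Fezf2+ve*. Of the other 9 members, *Cyfip1* came closest to *Actr3*, at r = 0.37.

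Microglial and blood markers were, like *Actr3*, lower in *Fezf2+ve*. Of 18 microglial markers, all 18 were tested and had a negative log2 fold change, 12 at an unadjusted p under 0.05 (among them *Csf1r*, *Ctss*, *P2ry12*, *Tyrobp*, *C1qa* and *Tmem119*), and the median was −4.82. DESeq2 gave an adjusted p to 14 of them and called 12, all lower in *Fezf2+ve*. Their summed level was 313, 214, 110, 79.2 and 152 CPM in *Fezf2+ve* and 7718, 5744, 7854, 8724 and 4152 CPM in *Fezf2−ve* libraries, so it was higher in *Fezf2−ve* in 5 of 5 animals. *Ptprc* had the most reads, 1422, of which 97.7% were in *Fezf2−ve* library 4, and *Trem2* was at 0 in all *Fezf2+ve* libraries. Of 7 blood markers 6 were tested, and all 6 were lower in *Fezf2+ve* at an unadjusted p under 0.05, but they come in near-identical pairs with equal counts. DESeq2 called 2 of the 6, *Hba-a1* and *Hba-a2* (adjusted p = 0.0694 for both). The sum of the 7, in which a read can be counted on both genes of a pair, was 1507, 186, 16.9, 0 and 0 CPM in *Fezf2+ve* and 7093, 5609, 367, 478 and 9.19 CPM in *Fezf2−ve* libraries, with *Hbb-bs* having the most reads, 410. With 1 gene of each pair it was 753, 92.9, 8.47, 0 and 0 CPM against 3549, 2805, 184, 241 and 4.59 CPM. Within a type these CPM sums did not always follow *Actr3*. *Fezf2+ve* library 4 had the highest *Actr3* level of its type with the lowest microglial sum and 0 blood reads. *Fezf2−ve* library 5 had 87.3 CPM of *Actr3* with the lowest sums of its type. The sums were not TMM-normalized, and TMM factors were 1.26 and 0.568 for *Fezf2+ve* libraries 3 and 4. They were 1.34 and 0.849 for *Fezf2−ve* libraries 2 and 5. With that scaling neither microglial sum was the lowest of its type, so both microglial rankings depend on the scaling. The microglial ranking of the *Fezf2−ve* libraries also rests on *Ptprc*, which gave 1390 of the 1844 marker reads in *Fezf2−ve* library 4. Without *Ptprc*, library 4 and not library 5 had the lowest microglial sum of the *Fezf2−ve* libraries. The animals were perfused with saline, and the study sorted live single cells, gated out debris and set its gates on wild-type tissue. Arp2/3 genes are used by nearly all nucleated cells, and the part of microglia or blood cells in the *Actr3* values was not tested.

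**Figure D4:**
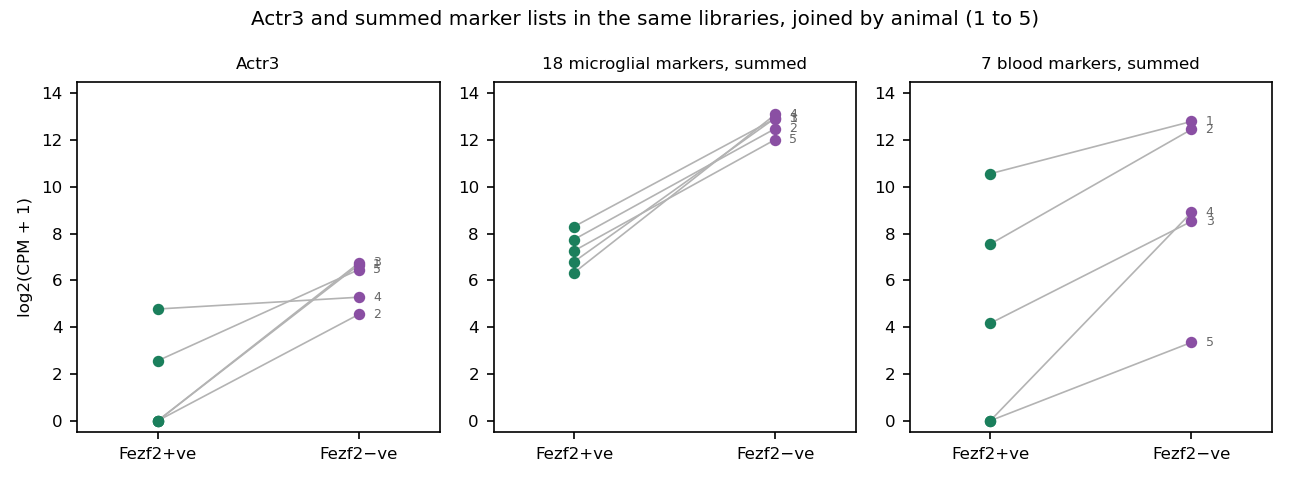
*Actr3*, the summed 18 microglial markers and the summed 7 blood markers (both genes of each pair with equal counts) in the same libraries, each as log2(CPM + 1), with lines joining the libraries of an animal. All 3 were lower in *Fezf2+ve* in 5 of 5 animals, while the types overlapped for *Actr3* and the blood markers.

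A list of 10 actin regulators known from myeloid cells contains *Arpc1b* and also *Abi3*. It had 7 genes tested, all 7 with a negative log2 fold change (median −2.31) and none at an unadjusted p under 0.05. Its summed level was lower in *Fezf2+ve* in 5 of 5 animals, at 33.9, 27.9, 25.4, 6.60 and 9.83 CPM against 1227, 112, 101, 37.8 and 23.0 CPM, and *Wipf1* supplied 74.1% of its reads. Without *Wipf1*, left out after its values were seen, the sum was lower in 4 animals and higher in animal 5, at 9.83 against 4.59 CPM. Its genes *Coro1a* and *Was* were at 0 in all *Fezf2+ve* libraries. The reverse held for *Gmfg* and *Fmnl1*, with 1 read each in *Fezf2+ve* and 0 in all *Fezf2−ve* libraries. Projection neuron markers had a summed level of 635, 715, 296, 350 and 93.4 CPM in *Fezf2+ve* and 137, 146, 3367, 56.8 and 64.3 CPM in *Fezf2−ve* libraries, with 7 of 10 tested and a median log2 fold change of 1.08. The sum was higher in *Fezf2+ve* in 4 of 5 animals, and lower in animal 3. *Camk2a* had the most reads of these, 588, of which 90.0% were in *Fezf2−ve* library 3, *Slc17a7* had 7 and 4 reads by type, and *Tbr1* was at 0. Interneuron markers were nearly absent, with 0 of 6 tested, *Gad2* at 6 reads, and *Slc32a1*, *Pvalb* and *Vip* at 0. Astrocyte (5 of 7 tested, most reads *Slc1a2*, *Gfap* at 0), oligodendrocyte (6 of 6), oligodendrocyte precursor (4 of 4, *Pdgfra*) and endothelial markers (3 of 5, *Flt1*) had no gene at an unadjusted p under 0.05. Their summed levels peaked in *Fezf2+ve* library 2 for astrocytes (7608 CPM), oligodendrocytes (10451 CPM) and precursors (2629 CPM). That library also had 99 reads of *Cyfip2* beside 98 of *Fndc9*, which may be the same reads.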

How the data were processed

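Per the labels and the study's methods, reads were trimmed, aligned by the authors to mm10 (TopHat2 2.1.1), and counted on RefFlat genes and ERCC sequences by multiCov of BEDTools 2.26.0. The deposited tables hold these read counts without normalization. A deposited DESeq2 table of the authors' own comparison was not used. The 7409 of 24453 genes that reached 10 CPM in 2 or more libraries were scaled by TMM and tested with edgeR 4.0.16 (quasi-likelihood, animal as block, Benjamini-Hochberg, call at 0.1) in R 4.3.3, and with DESeq2 1.42.0. SEs were derived as the fold change divided by the root of F. The pairing comes from the labels, as both types were sorted from each animal. Deviations of the libraries of an animal had a mean correlation of 0.029, against −0.007 between animals. Single levels were compared with exact permutation tests on TMM-normalized log2(CPM + 1) in Python 3.11.15 with scipy 1.17.1. Positions and exons are from GENCODE on GRCm38. The genes named are the members and, from each list, those with an unadjusted p under 0.05 and the gene with the most reads, and the 5 genes most correlated with *Actr3*; *Actr3b*, *Arpc4*, *Arpc5l*, *Abi3*, *Fndc9*, *Slc17a7*, *Srgap1*, *Srgap2*, *Nipa2*, *Pdap1*, *Kpna7* and genes at 0 were added after their values were seen. The results of some genes that this rule names are not reported here. Members and lists were chosen with earlier results of these data known. The fits were tested on simulated data, with the pass criterion narrowed to better covered genes after the first outcome was seen. At the common spread of these libraries, set for every gene, edgeR with the block had little power there, and DESeq2 made more wrong calls than right ones. Alternatives were other scaling, filters, tools, depth, pseudocount, the block, and leaving out each animal.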

Additional observations from a re-analysis of the deposited data

Results flagged for a closer look

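In 5 of the 20 groups formed by a gene and a type, 1 library stood apart from the other 4, by a gap to its nearest neighbour over 0.71 of the group's range (Dixon's 95% critical value for 5 samples). That value flags about 1 group in 20 by chance for continuous values, a rate that does not hold for counts this low. In 3 of the 5 the other 4 libraries were at 0, so the gap equals the range. Levels are TMM-normalized log2(CPM + 1). *Cyfip2* was at 9.24 in *Fezf2−ve* library 5, from 109 reads, which equals the count of *Fndc9* there. *Wasf1* was at 3.82 in *Fezf2+ve* library 2, the one *Fezf2+ve* library with reads of it, and *Arpc1b* was at 3.82 in the same library. Each of these rests on 2 reads. *Arpc3* was at 3.73 in *Fezf2+ve* library 5, also from 2 reads. *Arpc1b* was at 0 in *Fezf2−ve* library 5, while the other 4 *Fezf2−ve* libraries had 1 or 2 reads. *Actr2* in *Fezf2+ve* library 5, with 106 reads, did not pass this limit on the log scale.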

How the results depend on the processing

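Fold changes of the 8 members above the floor were recomputed under 27 settings, which gave 212 values, since 4 members missed the stricter filter. Of these 206 kept their direction, 6 reversed and 0 were called. The reversals were *Arpc2* when downsampled to the smallest library (0.22), *Arpc2* without replicate 1 (0.37) or 3 (0.48; range over animals left out −1.33 to 0.48), *Cyfip1* without replicate 3 (0.39; range −1.31 to 0.39), and *Cyfip2* without replicate 2 (−0.63) or 3 (−0.14; range −0.63 to 2.19). The cause was not tested. Over all settings *Actr2* ranged from 0.16 (without replicate 5) to 2.00 (without the block), *Arpc1a* from −1.99 (without replicate 2) to −0.77 (without the block) and *Arpc5* from −2.24 (without replicate 2) to −0.57 (without replicate 1). For *Actr3*, leaving out an animal gave −5.15 to −3.27, and the unadjusted p was 0.0583 without replicate 1 and 0.0749 without replicate 3. With the stricter filter (10 CPM in 5 libraries) 4 of the 8 members were tested, and 2 of those were lower in *Fezf2+ve*. Paired differences kept their sign with a pseudocount of 10 CPM and with library size only.

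Without the replicate block, edgeR called 638 genes instead of 0, and *Actr3* had a log2 fold change of −2.82 and an unadjusted p of 0.0513, without a call. DESeq2 with the block called 98. After these counts had been seen, robust dispersions, full library sizes and TMM before the filter were added, alone and combined. With the block, all 7 such fits called 0 genes. Without the block, the fits called 646 (full library size), 611 (TMM before the filter) and 613 (both), and with robust dispersions 40, or 39 with TMM before the filter, so that count depends on the dispersion estimate. Other blocked edgeR settings called 0 genes.

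At 89138 to 217738 reads per library, most values of the members lay under the floor of 3 reads, so a change in *Arpc1b* or *Arpc3* was not detectable at this depth.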
